A study of Mus musculus with 22 samples.

Results

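The Cyp3a cytochromes P450, their receptors and their electron donor were described as 9 genes in mouse liver. These are the 6 cytochromes Cyp3a11, Cyp3a13, Cyp3a16, Cyp3a25, Cyp3a41a and Cyp3a44, the receptor genes Nr1i2 (encoding PXR, the pregnane X receptor) and Nr1i3 (encoding CAR, the constitutive androstane receptor), and Por (encoding the cytochrome P450 reductase). They were picked by gene symbol, with earlier results of these data known, and are 9 of the 45777 genes listed in both deposited count tables. All 9 passed the count filter in both cohorts. Cyp3a16 and Cyp3a41a passed in the HFD cohort only through the normal-diet group, so their fall on HFD was built into passing the filter.

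Polyadenylated liver RNA of male wild-type C57BL/6J mice was sequenced in 22 libraries, in 2 cohorts of 11 that the labels give as batches. In the HFD cohort, 3 libraries came from mice on normal diet with vehicle, 4 from mice on high-fat diet (HFD, labelled MASLD) with vehicle, and 4 from mice on HFD with DTMB. In the MCD cohort, 4 came from normal diet with vehicle, 4 from mice fed without methionine and choline (MCD diet, labelled MASH) with vehicle, and 3 from MCD with DTMB. DTMB is a compound known here only by this name, given by mouth at 10 mg per kg per day. The labels give neither age nor the length of the diet or the treatment. Libraries are labelled as biological replicates. The diet of each cohort and its batch cannot be told apart, so diets were compared with normal diet only within a cohort.

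Cyp3a enzymes are heme proteins of the endoplasmic reticulum that oxidise drugs, steroids and bile acids, and they draw their electrons from NADPH through the reductase Por. PXR and CAR are nuclear receptors that respond to foreign compounds and bile acids, pair with the retinoid X receptors and raise transcription of Cyp3a, Cyp2b, Cyp2c, conjugating enzyme and transporter genes. Cyp3a11 is the main form of adult mouse liver, Cyp3a16 is known as a fetal form, and Cyp3a41a and Cyp3a44 are known as forms of female liver.

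Values are CPM, read counts per 1 M counts of the library total after TMM scaling, computed within a cohort. TMM scaling multiplies each library total by a factor, here between 0.785 and 1.21. Differences are log2 fold changes with their standard error (SE). They were called at an adjusted p of at most 0.05 in edgeR's quasi-likelihood test, with Benjamini-Hochberg adjustment over all genes tested. Each library held 50.1 to 66.7 M counts in total. Of the 8 hepatocyte markers in the fixed list, 7 were in the tables, and they summed to between 80348 and 121007 CPM in every library. Pancreatic acinar transcripts (11 digestive-enzyme genes such as Amy2a5 and Ctrb1) summed to between 403 and 2644 CPM in 5 HFD-cohort libraries: normal-diet replicates 1 and 3, HFD vehicle replicates 1 and 4, and HFD DTMB replicate 3. In the MCD cohort, normal-diet replicate 4 had 449 CPM of them. They summed to at most 24.2 CPM in the other libraries. In RNA of whole liver, fewer cells of a type and less RNA per cell cannot be told apart.

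Of the 6 cytochrome members, 5 sit in 1 cluster of 8 Cyp3a genes on chromosome 5, which spans 770 kb from 145345149 to 146114978 (GRCm38). Cyp3a13 lies apart from it, at chr5:137892933-137925610, and Por is on the same chromosome at chr5:135670040-135735326. Nr1i2 is at chr16:38248349-38294849 and Nr1i3 at chr1:171213934-171218845. The coding sequences of Cyp3a41a and Cyp3a44 were 95.2% and 94.9% identical to that of Cyp3a11, and that of Cyp3a16 92.8%. Cyp3a13 and Cyp3a25 were 77.2% and 76.8% identical to Cyp3a11. Cyp3a41a and its neighbour Cyp3a41b, which is not among the 9 genes, were 99.9% identical, and 93.7% of the 50-base words of the Cyp3a41a transcript also occur in that of Cyp3a41b. Values of Cyp3a41a as a single gene are therefore uncertain. The share of 50-base words found in another Cyp3a transcript was 10.5% for Cyp3a16 and 18.2% for Cyp3a44. It was 14.7% for Cyp3a11 and 26.3% for Cyp3a25. Single values of these genes are therefore uncertain too. For Cyp3a13 the share was 0%. Off MCD diet, the Cyp3a44 count stayed at 1.02 to 1.26% of the Cyp3a11 count in 13 of 15 libraries. The sources used here do not say how reads shared between these genes were counted.

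The promoters of 5 clustered members are shown because Cyp3a16, Cyp3a41a and Cyp3a44 rose on MCD diet while Cyp3a11 and Cyp3a25 fell. Each is the RefSeq window (GRCm38.p6) from 250 bases before to 50 bases after the start of transcription, on the gene's strand (minus for all 5), 5′ to 3′. Capitals mark matches to the nuclear receptor half-sites AGGTCA and AGTTCA on either strand, so a match on the opposite strand reads TGACCT or TGAACT.
Cyp3a11: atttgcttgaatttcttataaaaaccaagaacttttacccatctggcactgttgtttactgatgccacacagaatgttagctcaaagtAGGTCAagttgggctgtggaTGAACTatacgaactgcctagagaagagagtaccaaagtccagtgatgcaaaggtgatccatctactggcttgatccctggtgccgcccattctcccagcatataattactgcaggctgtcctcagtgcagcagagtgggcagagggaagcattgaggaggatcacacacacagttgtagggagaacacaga
Cyp3a16: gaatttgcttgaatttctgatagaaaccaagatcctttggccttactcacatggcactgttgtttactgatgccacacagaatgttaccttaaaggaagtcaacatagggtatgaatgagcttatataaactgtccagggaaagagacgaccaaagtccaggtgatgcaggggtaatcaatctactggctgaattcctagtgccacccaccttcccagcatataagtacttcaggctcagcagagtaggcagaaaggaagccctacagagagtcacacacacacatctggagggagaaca
Cyp3a41a: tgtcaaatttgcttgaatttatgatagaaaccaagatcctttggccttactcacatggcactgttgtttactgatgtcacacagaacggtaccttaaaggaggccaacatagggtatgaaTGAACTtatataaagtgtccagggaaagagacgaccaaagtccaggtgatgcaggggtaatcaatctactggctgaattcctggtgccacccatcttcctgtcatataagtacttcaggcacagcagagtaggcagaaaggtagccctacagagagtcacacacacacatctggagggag
Cyp3a44: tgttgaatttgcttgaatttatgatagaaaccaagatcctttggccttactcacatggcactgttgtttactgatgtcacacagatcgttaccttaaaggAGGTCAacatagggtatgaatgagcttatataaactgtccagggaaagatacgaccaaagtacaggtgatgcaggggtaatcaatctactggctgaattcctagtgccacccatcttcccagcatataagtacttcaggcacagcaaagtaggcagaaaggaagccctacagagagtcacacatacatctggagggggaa
Cyp3a25: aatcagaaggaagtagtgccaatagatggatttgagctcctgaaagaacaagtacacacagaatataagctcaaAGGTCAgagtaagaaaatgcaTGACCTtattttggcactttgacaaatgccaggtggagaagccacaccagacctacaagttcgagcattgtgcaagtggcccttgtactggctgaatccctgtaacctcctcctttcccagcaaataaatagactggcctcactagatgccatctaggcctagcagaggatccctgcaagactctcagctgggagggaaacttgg
The windows are at chr5:145879805-145880104 for Cyp3a11, chr5:145469674-145469973 for Cyp3a16, chr5:145720087-145720386 for Cyp3a41a, chr5:145805825-145806124 for Cyp3a44 and chr5:146009569-146009868 for Cyp3a25. Those of Cyp3a16, Cyp3a41a and Cyp3a44 were 92.4 to 93.4% identical to each other and 71.6 to 75.2% identical to that of Cyp3a11. The window of Cyp3a25 was 55.0 to 58.1% identical to those of the other 4. Cyp3a11 held 1 AGGTCA and 1 AGTTCA, Cyp3a25 held 2 AGGTCA, Cyp3a44 held 1 AGGTCA and Cyp3a41a held 1 AGTTCA. In Cyp3a16, Cyp3a13, Nr1i2, Nr1i3 and Por, neither half-site occurred in this window. No window of the 9 genes held an exact pair of half-sites as a direct repeat spaced by 3 or 4 bases or as an everted repeat spaced by 6. Such exact pairs occurred in only 3, 7 and 3 of all 27025 RefSeq windows of this length. Their absence from 9 windows therefore says nothing about these genes, and inexact pairs were not searched for. Of 27025 RefSeq windows of this length, 16.0% held AGGTCA, 14% held AGTTCA and 27.6% held either.

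**Figure D1:**
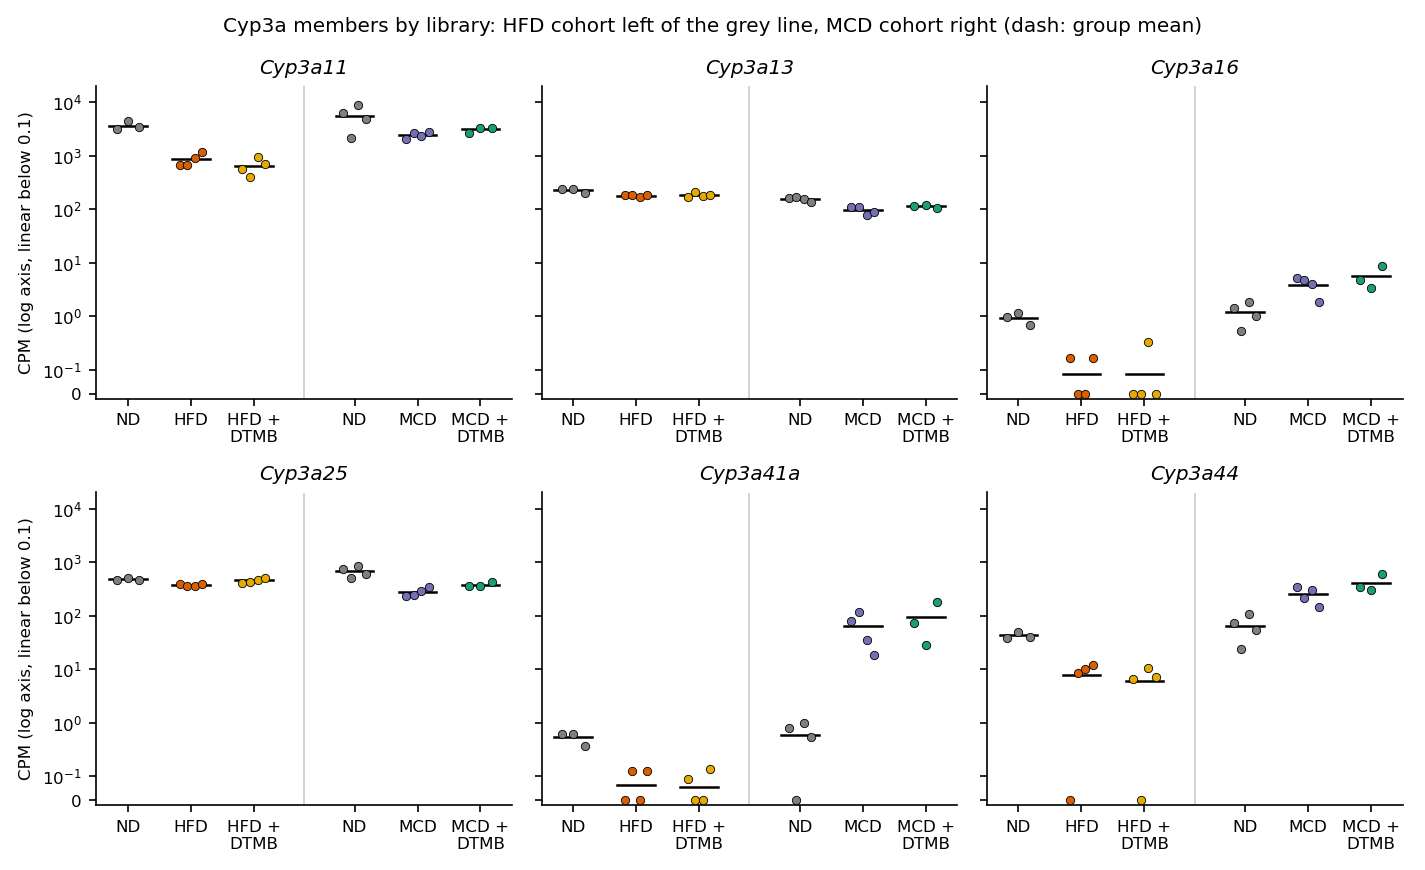
CPM of the 6 Cyp3a members in each library (points) with the group mean (dash), on a log axis that is linear below 0.1. Cyp3a11 is the highest of the 6 in every group, while Cyp3a41a, at most 0.988 CPM outside MCD diet, reaches 18.4 to 180 CPM in the 7 MCD-diet libraries.

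The main liver form was lower on HFD. Cyp3a11 stood at 3157, 4402 and 3409 CPM in the 3 normal-diet libraries of the HFD cohort and at 670, 676, 913 and 1154 CPM in the 4 HFD vehicle libraries. Every HFD library lay below every normal-diet library. The fitted fall was 4.29-fold, a log2 fold change of -2.10 (SE 0.27, adjusted p = 2.04e-04). Summed over the 6 cytochrome members, the level was 4406 ± 702 CPM (SD, n = 3) on normal diet and 1415 ± 240 CPM (SD, n = 4) on HFD, and the share of Cyp3a11 in that sum was 82.8% ± 1.80 (SD, n = 3) and 59.5% ± 6.00 (SD, n = 4).

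Of the 7 genes left without Cyp3a16 and Cyp3a41a, whose passing the filter rested on normal diet, 5 fell on HFD and none rose, against 12.6% of the 15597 genes tested that fell and 27.8% called in either direction. The libraries of the diet groups did not overlap for 5 of these 7, and for 36.0% of all genes tested. With library totals alone as the scale, the median of all genes moved to 0.14 on the log2 scale, and 3361 genes were called higher and 1030 lower, against 2374 and 1958. Por fell as well. Its CPM was 694, 612 and 386 on normal diet and 153, 239, 252 and 238 on HFD vehicle, without overlap. The log2 fold change was -1.35 (SE 0.19, adjusted p = 3.86e-04). The calls for Cyp3a11 and Por were both kept under each of 21 other settings or left-out libraries.

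The falls of the 2 cytochromes least like Cyp3a11 in sequence were small. Cyp3a25, an adult liver form, was at 469, 511 and 461 CPM on normal diet and at 385, 362, 361 and 391 CPM on HFD, a log2 fold change of -0.36 (SE 0.081, adjusted p = 0.00646). Cyp3a13, a form of liver and intestine, ranged from 199 to 243 CPM on normal diet and from 169 to 186 CPM on HFD, with a log2 fold change of -0.33 (SE 0.091, adjusted p = 0.0178). Neither gene's groups overlapped. Both calls were lost with library totals alone as the scale, that for Cyp3a13 also without normal-diet replicate 1 or 2 and that for Cyp3a25 with both cohorts in one fit. Cyp3a25 thereby made up 27.0% of the summed members on HFD (SD 4.00, n = 4) and 11% on normal diet (SD 1.12, n = 3).

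The 3 forms most like Cyp3a11 in sequence had few counts on HFD. Cyp3a44 was at 38.4, 50.7 and 39.3 CPM on normal diet and at 0, 8.52, 9.97 and 12.3 CPM on HFD. Its groups did not overlap, and 1 HFD library was at 0, but the log2 fold change of -2.48 (SE 1.07) missed the threshold (adjusted p = 0.106). Cyp3a16 had counts of 64, 60 and 37 on normal diet and of 11, 0, 0 and 11 on HFD, with an adjusted p of 0.0402. Cyp3a41a had 40, 33 and 20 counts on normal diet and 0, 8, 0 and 8 on HFD, with an adjusted p of 0.0328. At these few counts, the call for Cyp3a16 was kept under 10 of 20 alternatives and that for Cyp3a41a under 12 of 20.

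The receptor genes gave small differences on HFD. Nr1i2 was at 86.2, 67.3 and 57.3 CPM on normal diet and at 42.9, 49.1, 62.1 and 54.6 CPM on HFD. The groups overlapped, the log2 fold change was -0.43 (SE 0.14, adjusted p = 0.0384), and leaving out any of 5 libraries (normal-diet replicates 1 and 2, HFD vehicle replicates 1, 2 and 4) ended the call. Nr1i3 was at 65.9, 57.9 and 70.3 CPM on normal diet and at 76.4, 93.6, 84.4 and 68.2 CPM on HFD, with a log2 fold change of 0.32 (SE 0.11, adjusted p = 0.0516). Its highest normal-diet library lay above its lowest HFD library, and the change was not called by edgeR. It was called under 7 of 21 other settings or left-out libraries, DESeq2 and limma-voom among them. By limma-voom all 9 genes were called on HFD, beside 4462 of all genes.

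In this cohort, 2 libraries on normal diet and 2 on HFD vehicle carried acinar transcripts, and without the 5 acinar libraries of the cohort 1, 2 and 3 libraries remained in the groups. The lone normal-diet library is then assumed to vary like the others. In that fit Cyp3a11 (log2 fold change -2.48, SE 0.31, adjusted p = 0.0106) and Por (-1.33, SE 0.11, adjusted p = 0.00332) kept their calls. Cyp3a13, Cyp3a16, Cyp3a25, Cyp3a41a and Nr1i2 lost theirs, at adjusted p of 0.0597 to 0.331, among 655 genes called in all. In that fit the log2 fold change was -0.48 for Cyp3a13, -0.51 for Cyp3a25 and -3.28 for Cyp3a41a, each larger in size than with all libraries, and -0.29 for Nr1i2. Cyp3a16 had no count in the 2 HFD vehicle libraries left, so no fold is given. Macrophage markers also differed: with all libraries, 5 of 12 were called higher on HFD, beside 15.2% of all genes. The sum of these markers was 156 to 244 CPM on normal diet and 228 to 594 CPM on HFD. Their part in the result was not tested.

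**Figure D2:**
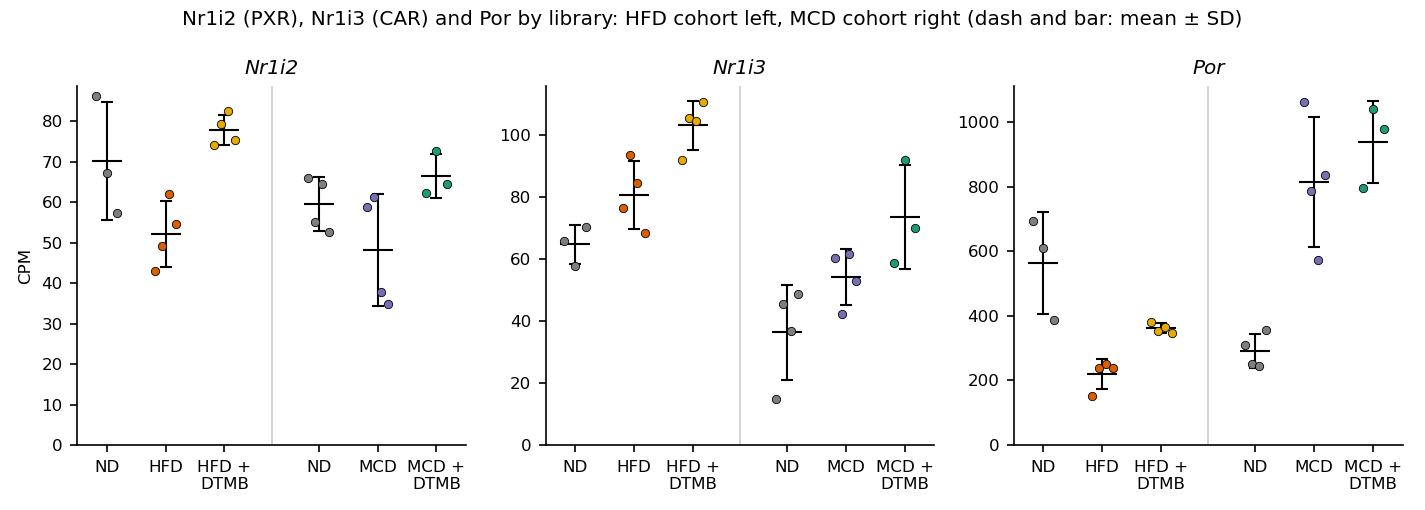
CPM of Nr1i2, Nr1i3 and Por in each library (points) with mean and SD (dash and bar), HFD cohort left and MCD cohort right. Within the HFD cohort Por is lowest on HFD vehicle, at 153 to 252 CPM, and it reaches 574 to 1063 CPM on MCD diet, above all 4 normal-diet libraries of that cohort.

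DTMB on HFD left the Cyp3a11 level low. Cyp3a11 was at 562, 395, 940 and 712 CPM in the 4 HFD DTMB libraries, which overlapped the HFD vehicle libraries. The log2 fold change against vehicle was -0.39 (SE 0.24, adjusted p = 0.304), with a 95% interval of -0.92 to 0.15. Against normal diet, Cyp3a11 in the DTMB group was 5.61-fold lower (log2 fold change -2.49, SE 0.27, adjusted p = 6.82e-05). The summed members stood at 1302 ± 256 CPM (SD, n = 4), of which Cyp3a11 was 49.0% ± 8.40 (SD, n = 4).

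Por and both receptor genes were higher with DTMB than with vehicle on HFD. Por was at 382, 353, 367 and 346 CPM with DTMB, all above the 4 HFD vehicle libraries and all below the 3 normal-diet libraries. The log2 fold change against vehicle was 0.71 (SE 0.18, adjusted p = 0.0261), and against normal diet it was -0.64 (SE 0.19, adjusted p = 0.0241). Nr1i2 was at 74.1, 79.3, 82.5 and 75.5 CPM with DTMB, above every HFD vehicle library, with a log2 fold change of 0.58 (SE 0.13, adjusted p = 0.0195). Nr1i3 was at 92.0, 105, 105 and 111 CPM with DTMB, where the lowest library lay below the highest HFD vehicle library (0.35, SE 0.10, adjusted p = 0.0435).

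Cyp3a25 was the 1 cytochrome member called, at 417, 426, 472 and 514 CPM with DTMB (0.29, SE 0.075, adjusted p = 0.0313). Thus 4 of 9 genes rose with DTMB on HFD and none fell, where 6.64% of all genes tested rose, 6.04% fell and 12.7% were called. For 3 of the 9 the libraries did not overlap, as for 19.8% of all genes. Cyp3a13 (0.05, SE 0.084), Cyp3a16 (0.01, SE 1.17), Cyp3a41a (-0.13, SE 1.10) and Cyp3a44 (-0.32, SE 1.00) were not called, and the last 3 had libraries without a count in both groups.

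These 4 calls depended on single libraries. Leaving out HFD vehicle replicate 1, HFD DTMB replicate 3 or HFD DTMB replicate 4 ended all 4 of them, as did leaving out the 5 acinar libraries, where the adjusted p was 0.128 for Por, 0.251 for Nr1i2, 0.325 for Cyp3a25 and 0.451 for Nr1i3 and no gene of 16101 tested was called. The log2 fold changes of these 4 genes stayed positive in these 4 fits. With library totals alone as the scale, 2 of the 4 calls were kept, and over all genes 406 were called higher and 2393 lower, against 1036 and 942. Compared with normal diet, the DTMB group had 1 of the same 7 genes higher and 3 lower, beside 29.2% of genes called (15.7% higher, 13.5% lower), and 4 of 7 without overlap, beside 35.4%. Nr1i3 was higher (0.67, SE 0.11, adjusted p = 0.00102), and Cyp3a11, Cyp3a13 and Por were lower. Leaving out normal-diet replicate 1 or 2 ended the call for Por. This comparison shares its DTMB libraries with the one against vehicle and its normal-diet libraries with that of the diet.

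On MCD diet the family split. Cyp3a41a, Cyp3a44 and Cyp3a16 rose with Por, while Cyp3a25, Cyp3a11 and Cyp3a13 fell. In all, 4 of 9 genes rose and 3 fell, beside 41.3% of the 16037 genes tested (20.3% higher and 21.0% lower), and groups did not overlap for 5 of 9, beside 37.7%. With library totals alone as the scale, the median of all genes moved to 0.47 on the log2 scale, and 7683 genes were called higher and 1170 lower, against 3253 and 3373. Of 7 hepatocyte markers, 5 fell and 1 rose on MCD diet, and their sum was 80348 to 113820 CPM against 86012 to 121007 CPM on normal diet. Of 6 stellate-cell markers 4 rose, with sums of 358 to 545 CPM against 148 to 275 CPM. Of 12 macrophage markers 4 rose (368 to 957 CPM against 214 to 659 CPM), all 5 erythroid markers fell (146 to 343 CPM against 381 to 569 CPM), and 5 of 7 tested acinar markers fell. The part of these cell types in the member results was not tested.

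Cyp3a41a had the largest difference of the 9 genes. It was at 0.814, 0, 0.988 and 0.540 CPM in the 4 normal-diet libraries and at 81.5, 119, 35.8 and 18.4 CPM in the 4 MCD vehicle libraries. The lowest MCD library was thus far above the highest normal-diet library, while the MCD libraries differed among themselves by several fold. The log2 fold change was 6.72 (SE 0.89, adjusted p = 1.37e-04). Its near-copy Cyp3a41b gave 15.3 to 94.2 CPM on MCD vehicle and 0 to 1.12 CPM on normal diet (6.28, SE 0.88, adjusted p = 2.04e-04). Summed over both, which does not depend on how their shared reads were divided, the level was 114 ± 80.9 CPM (SD, n = 4) on MCD vehicle and 1.21 ± 0.913 CPM (SD, n = 4) on normal diet.

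Cyp3a44 was at 72.6, 24.4, 110 and 55.1 CPM on normal diet and at 347, 213, 309 and 148 CPM on MCD vehicle. These groups did not overlap (log2 fold change 1.96, SE 0.41, adjusted p = 0.00285), and the call was lost with both cohorts in one fit (adjusted p = 0.065). Cyp3a16 rose from between 0.541 and 1.88 CPM to between 1.82 and 5.17 CPM (1.69, SE 0.43, adjusted p = 0.0079), with its lowest MCD library below its highest normal-diet library. Its counts were few beside those of Cyp3a44: 76, 24, 97 and 47 against 3923, 1081, 5671 and 2552 on normal diet. On MCD vehicle they were 396, 358, 302 and 117 against 26619, 16140, 23400 and 9478. Whether reads of Cyp3a44 were counted to Cyp3a16 was not tested. Per kilobase of exon, Cyp3a44 ranked 4 of the 6 cytochrome members on normal diet, at 33.4 CPM per kb, and 3 on MCD vehicle, at 130 CPM per kb (SD 46.2), next to Cyp3a25 at 140 CPM per kb (SD 26.5), a gap within their spread.

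Cyp3a25 fell from 744, 509, 846 and 612 CPM on normal diet to 238, 239, 292 and 349 CPM on MCD vehicle, without overlap (-1.28, SE 0.18, adjusted p = 1.83e-04). Cyp3a13 fell from between 139 and 168 CPM to between 78.3 and 110 CPM (-0.68, SE 0.12, adjusted p = 9.75e-04). With library totals alone as the scale, Cyp3a13 was at -0.22 and its call was lost (adjusted p = 0.201). Cyp3a11 was at 6374, 2143, 9003 and 4836 CPM on normal diet and at 2046, 2666, 2342 and 2793 CPM on MCD vehicle. Normal-diet replicate 2 lay within the MCD range, and the other 3 normal-diet libraries lay above it. The log2 fold change was -1.18 (SE 0.33, adjusted p = 0.0126). With library totals alone, the Cyp3a11 value was -0.74 and the call was lost too (adjusted p = 0.0753).

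Por rose on MCD diet. It was at 310, 252, 243 and 357 CPM on normal diet and at 1063, 787, 574 and 836 CPM on MCD vehicle, so that the groups did not overlap, with a log2 fold change of 1.49 (SE 0.19, adjusted p = 1.14e-04). The receptors were not called by edgeR. By limma-voom, another test, all 9 genes were called, beside 8017 of all genes. Nr1i2 was called under that 1 of 21 alternatives only, and Nr1i3 under 3 of 21. Nr1i2 was at 65.9, 55.1, 64.5 and 52.7 CPM on normal diet and at 58.9, 61.3, 37.7 and 34.8 CPM on MCD vehicle (-0.31, SE 0.18, adjusted p = 0.186), and with library totals alone the value was 0.17. Nr1i3 was at 14.7, 45.4, 36.9 and 48.6 CPM on normal diet and at 60.4, 42.2, 61.5 and 52.7 CPM on MCD vehicle (0.58, SE 0.30, adjusted p = 0.14).

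DTMB on MCD diet gave no call among the 9 genes, where 1 of 16037 genes was called (0.00624%) and 2 of the 9 had an unadjusted p under 0.05, as had 857 of all genes (5.34%). Those were Nr1i2, at 62.4, 72.8 and 64.5 CPM with DTMB (log2 fold change 0.47, SE 0.19, adjusted p = 0.919), and Cyp3a25, at 355, 360 and 432 CPM (0.45, SE 0.19, adjusted p = 0.919). For both genes every DTMB library lay above every MCD vehicle library, and groups did not overlap for 5.86% of all genes. DESeq2 and limma-voom called 0 of the 9 as well. Cyp3a11 was at 2673, 3337 and 3286 CPM with DTMB (0.33, 95% interval -0.42 to 1.09), Por at 796, 1041 and 981 CPM (0.20, 95% interval -0.24 to 0.65) and Cyp3a41a at 72.5, 28.5 and 180 CPM (0.56, 95% interval -0.96 to 2.08). The 3 DTMB libraries of Cyp3a41a were as unlike each other as the 4 MCD vehicle libraries.

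Against normal diet, the MCD DTMB group had 5 genes higher and 2 lower, beside 32.6% of genes called (16.2% higher, 16.4% lower), and 7 of 9 without overlap, beside 44.1% of all genes. Higher were Cyp3a41a (7.28, SE 0.92, adjusted p = 1.33e-04), Cyp3a44 (2.65, SE 0.44, adjusted p = 8.48e-04), Cyp3a16, Por (1.69, SE 0.20, adjusted p = 9.86e-05) and Nr1i3 (1.02, SE 0.32, adjusted p = 0.0287). Lower were Cyp3a13 and Cyp3a25. Nr1i3 lost its call without normal-diet replicate 3, DTMB replicate 2 or DTMB replicate 3, and Cyp3a13 without DTMB replicate 1 or 3. With library totals alone, Cyp3a13 (-0.11, adjusted p = 0.591) and Cyp3a25 (-0.47, adjusted p = 0.0621) lost theirs. Cyp3a11 was not called here (-0.85, SE 0.36, adjusted p = 0.0863).

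**Figure D3:**
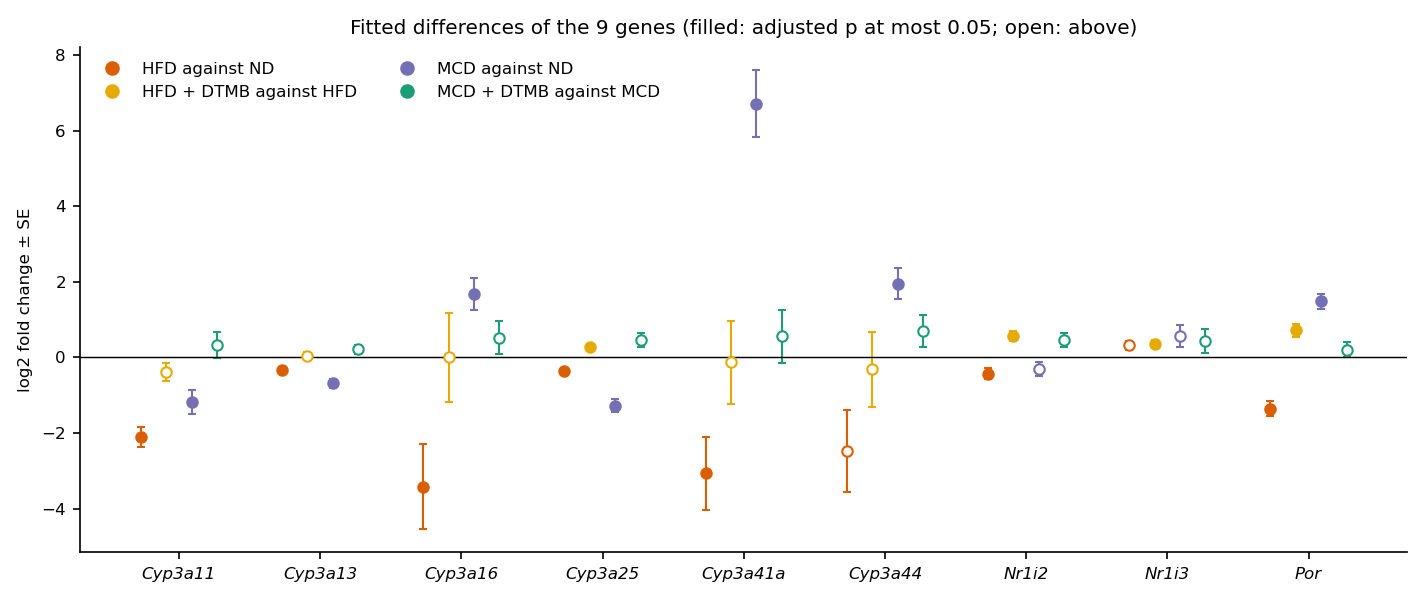
Log2 fold change with its SE for each of the 9 genes in the diet and DTMB comparisons of both cohorts, filled where the adjusted p was at most 0.05. Por is at -1.35 on HFD and 1.49 on MCD diet, and Cyp3a16, Cyp3a41a and Cyp3a44 lie below 0 on HFD and above 0 on MCD diet. In the HFD cohort, Cyp3a16 and Cyp3a41a had few counts and passed the count filter only through normal diet.

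The effects of the 2 diets differed for 5 of the 9 genes in a test of the difference itself, which used all 22 libraries in 1 fit and called 35.3% of 16541 genes (16.8% higher, 18.5% lower). Por differed by 2.87 on the log2 scale (SE 0.29, adjusted p = 2.28e-07), MCD effect minus HFD effect. Cyp3a41a differed by 9.82 (SE 1.34, adjusted p = 1.14e-05), Cyp3a16 by 5.14 (SE 1.10, adjusted p = 0.00117) and Cyp3a44 by 4.46 (SE 1.26, adjusted p = 0.00911). The sizes for Cyp3a41a and Cyp3a16 are uncertain, since they include HFD effects measured at 0 to 64 counts. Cyp3a25 differed by -0.89 (SE 0.21, adjusted p = 0.00237), falling more on MCD diet, and this call was lost without the acinar libraries (-0.79, adjusted p = 0.149). For Cyp3a11 the difference was 0.94 (SE 0.46, adjusted p = 0.119, 95% interval -0.01 to 1.90). The effect of DTMB differed between cohorts for 0 of the 9 genes (0% of all genes called). An unadjusted p under 0.05 in edgeR's test was found for 0 of the 9, beside 8.55% of all genes. At that share, 0 of 9 says little about these genes. DESeq2 called 0 of the 9 for this difference, beside 38 of all genes, and limma-voom called 0, beside 11.

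The counts of the near-identical forms were also set against the Cyp3a11 count of the same library, a ratio that no scaling factor touches. Cyp3a44 gave 1.22, 1.15 and 1.15% of the Cyp3a11 count in the normal-diet libraries of the HFD cohort and 1.14, 1.14, 1.22 and 1.14% in those of the MCD cohort. On HFD vehicle it gave 0, 1.26, 1.09 and 1.06%, and on HFD with DTMB 1.16, 0, 1.14 and 1.02%. In 13 of these 15 libraries the ratio therefore stayed between 1.02 and 1.26%, while the Cyp3a11 count ranged 23.7-fold, from 19619 to 464863. The other 2 libraries had no Cyp3a44 count, where the lowest of these ratios would give 447 and 201 counts.

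On MCD diet the ratio left that band in all 7 libraries. Cyp3a44 gave 17.0, 8.0, 13.2 and 5.29% of the Cyp3a11 count on MCD vehicle and 13.0, 9.02 and 17.9% on MCD with DTMB. Cyp3a41a gave at most 0.0196% in the 15 other libraries and 0.657 to 5.48% on MCD diet. Cyp3a16 gave at most 0.0350% in the 15 other libraries and 0.0653 to 0.270% on MCD diet. For all 3 genes, no MCD-diet library fell within the range of the others. Cyp3a25 gave 9.40 to 108% of the Cyp3a11 count in the 15 libraries off MCD diet. Whether reads of Cyp3a11 were counted to Cyp3a44 was not tested.

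**Figure D4:**
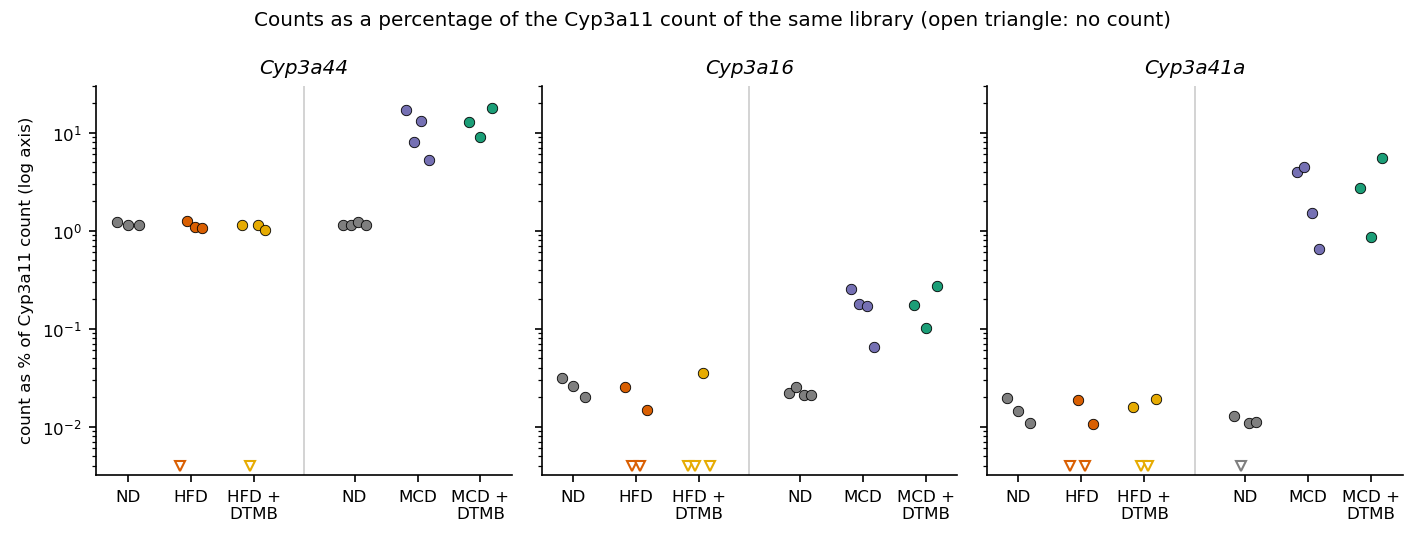
Counts of Cyp3a44, Cyp3a16 and Cyp3a41a as a percentage of the Cyp3a11 count in the same library, on a log axis, with libraries without a count as open triangles at the bottom. Cyp3a44 lies between 1.02 and 1.26% in 13 of 15 libraries off MCD diet and between 5.29 and 17.9% in the 7 on it.

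Across libraries of a cohort (11 each, which share diets, so these are descriptions), Cyp3a44 followed Cyp3a16 and Cyp3a41a on the MCD side, with Pearson r of 0.98 and 0.96 in log2 CPM, and Por correlated with Cyp3a41a at 0.90 and with Cyp3a25 at -0.81. In the HFD cohort, Cyp3a11 correlated with Cyp3a16 at 0.87, with Por at 0.62, with Nr1i2 at 0.08 and with Nr1i3 at -0.81. Outside the 9 genes, the likeness to a member was measured as the mean of both within-cohort r over 11 libraries each, among 11758 genes. Most like Por were Cyp39a1 (an oxysterol hydroxylase of bile acid synthesis, mean r 0.94), Rhbdd2 (0.94) and Dcaf6 (0.92). Most like Nr1i3 were Slc16a12 (a carrier of creatine, 0.90), Cyp2e1 (the ethanol-oxidising cytochrome, 0.89) and Ube2e2 (0.89). Most like Cyp3a11 were Amigo1 (0.86), Sox12 (0.84), Bend7 (0.81), Pi4k2b (0.81) and Simc1 (0.81). Cyp3a25 was most like Set (0.90), Polr2c and Zfp141, and Cyp3a44 was most like Impa2 (0.81), Snx8 and Ftl1-ps1.

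Genes that PXR and CAR are known to act on moved in both directions on either diet. Of 29 listed, 28 were tested in each cohort. On HFD, 7 rose and 6 fell (46.4% called, beside 27.8% of all genes, median log2 fold change 0.17, against 0.02 over all genes tested). The smallest p belonged to Ces2a, a carboxylesterase (-1.74, SE 0.12, adjusted p = 9.21e-06), Aldh1a1, a retinal dehydrogenase (0.93, SE 0.07), and Ugt1a9, a glucuronosyltransferase (-1.41, SE 0.19). With DTMB on HFD, 5 rose and 4 fell (32.1% called, beside 12.7% of all genes), led by Gsta1, a glutathione transferase (-1.95, SE 0.37, adjusted p = 0.011), Ugt1a9 (-0.90, SE 0.17) and Cyp2c29 (0.52, SE 0.11).

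On MCD diet, 7 of the 28 targets rose and 10 fell (60.7% called, beside 41.3% of all genes, median -0.11, against 0.00 over all genes tested). Ces2a fell again (-4.43, SE 0.25, adjusted p = 6.21e-07), and the efflux pump gene Abcb1a (3.06, SE 0.26) and the aldo-keto reductase gene Akr1b7 (5.17, SE 0.46) rose. The difference between the diet effects had its smallest p for Cyp2c29 (-3.11, SE 0.31, adjusted p = 2.48e-07), Ces2a (-2.66, SE 0.29) and Abcc3 (-1.42, SE 0.16). Cyp2b10, the best known CAR target, was looked up after its values were seen and was called on neither diet (-1.14, SE 0.63, on HFD and 0.49, SE 0.50, on MCD). With DTMB on MCD diet, 0 of the 28 were called.

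**Figure D5:**
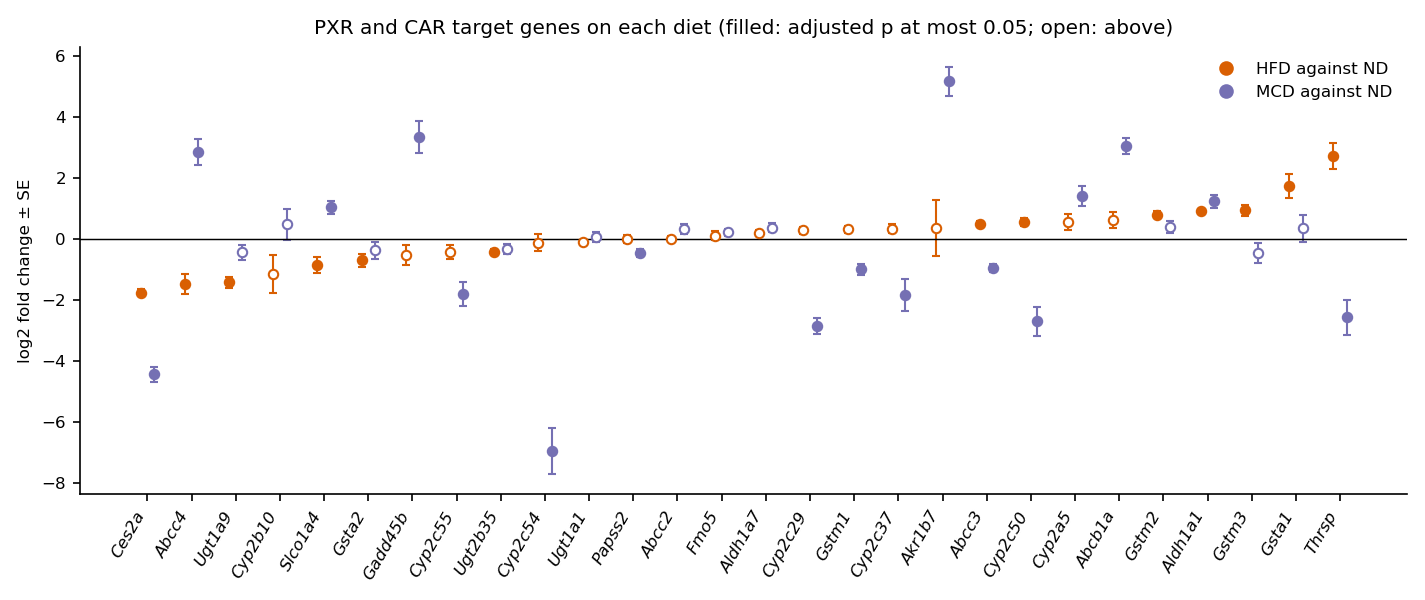
Log2 fold change with its SE for the 28 tested PXR and CAR target genes on HFD and on MCD diet, ordered by the HFD value and filled where the adjusted p was at most 0.05. Ces2a is low on both diets. Of 2 genes picked after their values were seen, Abcc4 is at -1.47 on HFD and 2.87 on MCD, and Thrsp is at 2.74 on HFD and -2.55 on MCD.

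Of 23 partners and coregulators of the receptors that were tested, 2 rose and 3 fell on HFD (21.7% called, below the 27.8% of all genes). Ahr, the aryl hydrocarbon receptor, rose (0.92, SE 0.10, adjusted p = 6.12e-05), and Hnf4a, a hepatocyte factor needed for Cyp3a transcription (-0.55, SE 0.07), and the coactivator gene Ppargc1b (-1.0, SE 0.19) fell. With DTMB on HFD, Hnf4a (0.37, SE 0.07, adjusted p = 0.011), Ppargc1b (0.63, SE 0.18) and Cebpa (0.40, SE 0.07) rose and none fell (13.0% called, beside 12.7%). On MCD diet, 3 rose and 7 fell (43.5% called, beside 41.3%), with Nr3c1, the glucocorticoid receptor, at -0.63 (SE 0.10), Dnajc7, a chaperone that holds CAR in the cytoplasm, at -0.50 (SE 0.08) and Med1, a coactivator subunit, at -0.56 (SE 0.10).

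Of 17 further genes of cytochrome electron transfer and of heme synthesis and breakdown, 8 rose and 1 fell on HFD (52.9% called, beside 27.8% of all genes), where Por fell. Cyb5b, a cytochrome b5 (0.81, SE 0.09, adjusted p = 9.12e-05), the cytochrome b5 reductase gene Cyb5r3 (0.73, SE 0.11) and the heme synthesis gene Uros (0.85, SE 0.13) had the smallest p. On MCD diet, where Por rose, 2 rose and 7 fell (52.9% called, beside 41.3%). The 2 that rose were the heme oxygenase genes Hmox1 (2.32, SE 0.31) and Hmox2 (0.49, SE 0.13), whose products break heme down, and among those that fell were Cyb5r3 (-1.0, SE 0.12) and the heme synthesis gene Ppox (-0.82, SE 0.13). The difference between the diet effects was itself called for Cyb5b (-1.75, SE 0.19, adjusted p = 9.65e-07), Cyb5r3 (-1.71, SE 0.16) and Uros (-1.46, SE 0.20). With DTMB on HFD, Cyb5a rose (0.45, SE 0.10) and Hmox1 fell (-0.78, SE 0.22).

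Since Cyp3a41a and Cyp3a44 are known from female liver, the other sex-biased genes were counted in these male livers. On MCD diet, 9 of 13 tested female-biased genes rose and 1 fell, and 13 of 14 male-biased genes fell and none rose, beside 20.3% of all genes higher and 21.0% lower. Cyp2a4 (6.16, SE 0.38, adjusted p = 8.62e-07) and Cyp2b9 (9.24, SE 0.64) had the smallest p of the first list, and C6 (-3.80, SE 0.19), Selenbp2 (-5.12, SE 0.31) and C8b (-3.75, SE 0.23) of the second. The summed female-biased list was at 157 to 352 CPM on normal diet and at 2123 to 2409 CPM on MCD vehicle. On HFD, where 27.8% of all genes were called, 6 of 13 female-biased genes rose and 5 fell, and 1 of 14 male-biased genes rose and 7 fell. Cyp2b9 rose there too (9.72, SE 0.93, adjusted p = 3.61e-05), while A1bg (-3.44, SE 0.44) and Cyp17a1 (-1.22, SE 0.15) fell.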

How the data were processed

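Liver RNA of 22 mice was sequenced from a stranded polyadenylated-RNA library kit, per the labels' protocols. The authors deposited raw read counts per gene in 1 table for each cohort. FastQC 0.11.7, Trimmomatic 0.38, HISAT2 2.1.0 and StringTie 2.1.3b are named in the submitters' processing notes with the build mm10. The sources used here state neither the strand setting nor the treatment of reads that match several genes. Of 45777 genes, 20101 had no count in any library.

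Each cohort was fitted alone on its 3 groups with edgeR 4.0.16 (R 4.3.3): filterByExpr, TMM scaling, the quasi-likelihood F test and Benjamini-Hochberg adjustment over all genes, called at 0.05. Differences between cohorts came from 1 fit of all 22 libraries. SE is the log2 fold change divided by the square root of F. CPM uses the TMM-scaled library size. The steps were tested on simulated data. No 2 libraries of a group agreed within counting error (chi-square over its degrees of freedom was at least 24.9), and all were kept.

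The 9 genes and all lists were chosen with earlier results of these data known. Named genes are the 9 members, the 3 of smallest p per list and comparison, and the 3 (for Cyp3a11, 5) most like each member. Some genes that this rule names are not reported here. Gene positions and promoter windows came from RefSeq, GRCm38.p6, which matched 45679 gene IDs and 9 of 9 members. Transcripts, coding sequences and exon lengths came from GENCODE vM21. Sequences were aligned with Biopython 1.88. Alternatives were DESeq2 1.42.0, limma-voom (limma 3.58.1), RLE and library-size scaling, 2 other count filters, other sample sets, a replicate block, each library left out in turn, and no libraries over 100 CPM of acinar transcripts. Groups share replicate numbers, but same-numbered libraries did not deviate together in every pair, so they were treated as unpaired.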

Additional observations from a re-analysis of the deposited data

Results flagged for a closer look

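In groups of 4 libraries, 2 of 36 gene and group combinations (5.56%) held a library far from the others, where chance gives about 1 in 20. Cyp3a16 stood at 0.329 CPM in HFD DTMB replicate 3, from 20 counts, while the other 3 libraries of that group had none. Por stood at 153 CPM in HFD vehicle replicate 1, below the other 3 at 238 to 252 CPM. Both libraries carried acinar transcripts, and their part in these values was not tested.

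The diet effect differed between the cohorts, MCD minus HFD on the log2 scale, by 9.82 for Cyp3a41a, 5.14 for Cyp3a16, 4.46 for Cyp3a44, 2.87 for Por and -0.89 for Cyp3a25, by edgeR's test of the difference itself. Diet and cohort cannot be told apart in these differences. Those of Cyp3a41a and Cyp3a16 also rest on the few counts of both genes in the HFD cohort.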

How the results depend on the processing

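Calls for Cyp3a11 and Por on HFD, and for Cyp3a16, Cyp3a25, Cyp3a41a and Por on MCD diet, were kept under all 21 alternatives. On HFD, 7 of the 9 genes were called, beside 4332 of 15597 genes tested. Those 7 include Cyp3a16 and Cyp3a41a, whose passing the filter rested on normal diet. With no count filter 4 were called, beside 3780 of 23687, and with both cohorts in one fit 4, beside 3034 of 16541. For DTMB on HFD, 4 were called, beside 1978 of 15597. With library size alone 2 were called, beside 2799 of 15597, and with no count filter 2, beside 1343 of 23687. The replicate block gave 1, beside 1225 of 15597, and both cohorts in one fit gave 1, beside 542 of 16541. Results without the acinar libraries are given above. With 1 library left out, the number of the 9 genes called was 3 to 8 on HFD. It was 3 without normal-diet replicate 1 or 2 and 4 without HFD vehicle replicate 1. For DTMB on HFD it was 0 to 4. For HFD DTMB against normal diet it was 2 to 7, with 2 left without normal-diet replicate 1 or 2. Counts over all genes are not given for these fits. Summed Cyp3a CPM on MCD vehicle was 3160, and 3619 with library size alone. The causes were not tested. Correlations of same-numbered libraries ran from -0.444 to 0.339 in the HFD cohort and from -0.269 to 0.0826 in the MCD cohort; with the replicate block 5 genes were called on HFD and 7 on MCD diet.

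Directions turned only for uncalled values. Cyp3a16 for DTMB on HFD was -0.030 by DESeq2, -0.49 by limma-voom, -0.16 with library size alone, -0.0097 with no count filter and -0.21 with the replicate block. Cyp3a13 there was -0.11 with library size alone, and Cyp3a41a was 0.27 without the acinar libraries. Nr1i2 on MCD diet was 0.17 with library size alone; its diet difference was -0.040 by limma-voom and -0.049 without the acinar libraries, and its DTMB difference 0.024 by limma-voom. With 1 library left out, DTMB on HFD ranged from -5.37 to 0.57 for Cyp3a16, -1.02 to 0.44 for Cyp3a41a, -0.73 to 0.081 for Cyp3a44 and -0.031 to 0.092 for Cyp3a13, and DTMB on MCD diet from -0.33 to 1.05 for Cyp3a41a. The Nr1i2 diet difference ranged from -0.016 to 0.28, and the DTMB difference from -0.070 to 5.99 for Cyp3a16, -0.25 to 1.57 for Cyp3a41a, -0.26 to 0.0094 for Nr1i2 and -0.11 to 0.21 for Nr1i3. Over all genes, DTMB on HFD gave 1978 calls by edgeR and 3028 by DESeq2, and DTMB on MCD diet 1 and 13. At the 0 to 64 counts of Cyp3a16 and Cyp3a41a in the HFD cohort, depth limits both genes.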

Other observations

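Acute phase genes, which the liver raises in inflammation, rose on HFD for 6 of 10, beside 15.2% of all genes. They were led by Lcn2 (3.80), Saa2 (3.64) and Saa1 (3.08) as log2 fold changes. Their sum overlapped, at 5981 to 6885 CPM on normal diet and 5860 to 8109 CPM on HFD vehicle. On MCD diet 3 rose and 2 fell, beside 20.3% of all genes higher and 21.0% lower. With DTMB 0 were called in either cohort, beside 12.7% of all genes on HFD and 0.00624% on MCD diet. Markers of adipose tissue and muscle were called lower on HFD for 4 of 6, beside 12.6% of all genes. Their sum was 161 CPM in normal-diet replicate 1 and 0.422 and 0.901 CPM in normal-diet replicates 2 and 3. On HFD vehicle it was 0.516 to 2.51 CPM, so the higher sum on normal diet came from 1 library. Among the other genes of the Cyp3a cluster, Cyp3a57 rose on MCD diet (4.24, SE 0.83, adjusted p = 0.00178, edgeR). Its counts were 0, 0, 8 and 0 on normal diet and 91, 66, 38 and 40 on MCD vehicle. The size of that rise is therefore uncertain. Cyp3a59, 97.5% identical to Cyp3a25 in coding sequence, was called on neither diet (-0.38 on HFD, 0.07 on MCD). In the HFD cohort with DTMB, 4 of 14 male-biased genes rose, among them C8b (0.72), Bcl6 (1.36) and Hsd3b5 (2.92), and none fell. Of all genes tested there, 6.64% rose and 6.04% fell.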
